A study of Mus musculus with 6 samples.

Results

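The S100 genes encode small calcium-binding proteins, and 10 of them were examined among the 54648 gene symbols of an RNA-seq table from mouse peritoneal macrophages. The members were taken by symbol. S100a8 and S100a9 were included for their higher values in FOXO3 KO cells in this same table, whereas S100a1, S100a3, S100a4, S100a6, S100a10, S100a11, S100a13 and S100a16 were included as family members listed in macrophages. For S100a8 and S100a9 the contrast of FOXO3 KO with WT is therefore a description without a test. Macrophages came from the abdominal cavity of C57BL/6 mice aged 6 to 8 weeks, male and female. The mice were homozygous WT or homozygous FOXO3 KO, identified among littermates by genotyping, with 3 libraries of each genotype. The labels do not say whether each library came from a single mouse. All mice had received thioglycollate by intraperitoneal injection 4 days before the cells were harvested, a treatment that draws monocytes into the cavity. Mice without thioglycollate were not analysed here. FOXO3 is a forkhead transcription factor, and the study's methods name no cell type to which the knockout was limited. The harvest was not sorted, and in such bulk RNA fewer cells of a type and less RNA per cell cannot be told apart. Each library is named by its group and replicate, each is labelled as a separate sample of its genotype, and expression is given in CPM, counts scaled to a common library size.

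S100 proteins bind calcium through paired EF-hand loops, act mostly as dimers, and change shape on binding so that they can grip target proteins. Inside cells they regulate the cytoskeleton, membrane repair and annexins. Outside cells several act as danger signals, above all S100a8 and S100a9, which together form calprotectin, a protein abundant in neutrophils and young monocytes that binds zinc and manganese and signals through TLR4 and RAGE. Fecal calprotectin is a routine marker of intestinal inflammation.

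Libraries held between 28083572 and 36424331 counts. Foxo3 itself was at 117, 107 and 73.1 CPM in WT 1, 2 and 3, and at 4.71, 104 and 4.29 CPM in FOXO3 KO 1, 2 and 3. The library labelled FOXO3 KO 2 thus carried Foxo3 at the level of WT, against its label, and its value is shown apart from those of FOXO3 KO 1 and 3 below. Fold changes of the members, and those medians that are printed for gene lists, are given also without it. Whether groups overlap was judged with this library kept in FOXO3 KO. WT 3 stood apart from all others, with a Pearson's r of 0.917 to 0.951 across genes against 0.980 to 0.990 for all pairs without it, and the 8 B cell markers summed to 3312 CPM there, against 133.5 to 702.5 CPM in the others. WT 3 also held both Xist (871 CPM), which female cells transcribe, and Ddx3y (23.7 CPM), a gene of the Y chromosome. FOXO3 KO 3 held Xist (1130 CPM) with a lower level of Ddx3y (2.37 CPM, 79 counts), and Xist was under 1 CPM in the other 4 libraries. The 12 macrophage markers summed to between 14970 and 19650 CPM in each library, and none of them passed the test, which called 0.0% of all genes. Much of this sum was Lyz2, at 7746 to 11430 CPM, so it does not show even levels of the others. Of the 12, 7 were lowest in WT 3, beside 37.47% of all genes tested. Cd68 was at 524.8 CPM in WT 3 and at 990.4 to 1472 CPM in the others, whereas Adgre1 was highest in WT 3, at 920.3 CPM.

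All 10 genes lie on chromosome 3 in the GRCm38 assembly (mm10), inside 3053.6 kb that hold 75 protein-coding genes. The first block runs from S100a1 (chr3:90511034-90514392, minus strand) and S100a13 (chr3:90514435-90524581, plus strand), which are transcribed away from each other, through S100a16 (chr3:90537254-90543151), S100a3 (chr3:90560578-90602702), S100a4 (chr3:90603771-90606045) and S100a6 (chr3:90612882-90624181), all on the plus strand. It ends with S100a8 (chr3:90668978-90670035, plus strand) and S100a9 (chr3:90692632-90695721, minus strand), which face each other across 22.6 kb. S100a11 (chr3:93520488-93526287) and S100a10 (chr3:93555080-93564643) form a second block further along, both on the plus strand.

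Promoter windows from 250 bases before to 50 bases after the start site were read from RefSeq (GRCm38.p6) for 9 of the 10 members. The 4 windows below are shown because they set the S100a8 and S100a9 promoters, whose genes differed most between libraries, beside those of S100a4, the member with the highest level per length, and of S100a13, whose window also holds the start of S100a1 on the other strand. Capitals mark matches, on either strand, to a C/EBP-like motif (TTNNGNAA), a PU.1-like motif (GAGGAAG), an AP-1 motif (TGANTCA), a FOXO core (GTAAACA) or a TATA box (TATAAA). Each is written 5′ to 3′ on the strand of its gene. The S100a8 window is chr3:90668821-90669120 (plus), that of S100a9 chr3:90695672-90695971 (minus), that of S100a4 chr3:90603520-90603819 (plus) and that of S100a13 chr3:90514185-90514484 (plus).
S100a8: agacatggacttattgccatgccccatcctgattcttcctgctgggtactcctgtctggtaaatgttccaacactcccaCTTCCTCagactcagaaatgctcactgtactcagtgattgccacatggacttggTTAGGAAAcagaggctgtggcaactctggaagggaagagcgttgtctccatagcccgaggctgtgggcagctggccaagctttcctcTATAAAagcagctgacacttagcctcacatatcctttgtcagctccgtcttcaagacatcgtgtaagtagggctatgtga
S100a9: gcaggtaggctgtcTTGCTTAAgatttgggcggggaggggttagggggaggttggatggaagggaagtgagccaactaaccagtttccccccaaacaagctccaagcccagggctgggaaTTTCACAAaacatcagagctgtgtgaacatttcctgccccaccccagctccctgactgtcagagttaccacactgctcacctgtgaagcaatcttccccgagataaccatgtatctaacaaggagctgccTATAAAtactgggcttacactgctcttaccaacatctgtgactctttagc
S100a4: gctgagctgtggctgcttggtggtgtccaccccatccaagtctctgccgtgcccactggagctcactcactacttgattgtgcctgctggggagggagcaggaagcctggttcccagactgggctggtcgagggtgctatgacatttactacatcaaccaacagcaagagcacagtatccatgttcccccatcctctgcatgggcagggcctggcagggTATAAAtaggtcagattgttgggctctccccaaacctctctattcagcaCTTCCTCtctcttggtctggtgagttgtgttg
S100a13: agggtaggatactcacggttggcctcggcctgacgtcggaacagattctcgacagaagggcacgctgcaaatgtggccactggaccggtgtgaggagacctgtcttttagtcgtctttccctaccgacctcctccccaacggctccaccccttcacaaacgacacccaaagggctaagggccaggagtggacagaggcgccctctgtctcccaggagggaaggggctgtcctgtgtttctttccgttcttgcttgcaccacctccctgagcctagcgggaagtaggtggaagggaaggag

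The S100a8 window held 1 C/EBP-like match 117 bases before the start site, 1 PU.1-like match 171 bases before it and a TATA box 30 bases before it. The S100a9 window held 2 C/EBP-like matches, 236 and 130 bases before the start site, and a TATA box at the annotated start. S100a4 had a TATA box 31 bases before its start and a PU.1-like match 18 bases after it, whereas the window of S100a13 held none of these motifs. No window of the 9 members held the FOXO core, and the 2 AP-1 matches in the window of S100a11 lay 136 and 38 bases before its start. S100a16 and S100a3 had more than 1 window each. A window of S100a16 held an AP-1 match 192 bases before its start. Separate windows of S100a3 held C/EBP-like matches 116 and 198 bases before their starts and a TATA box 52 bases before. Over all 32851 promoter windows of the same length, a C/EBP-like match was found in 40.7%, a PU.1-like match in 13.6%, a TATA box in 13.6%, an AP-1 match in 7.81% and a FOXO core in 3.65%. A match of letters is not a bound site, and these windows were not assayed. The windows also differed in CpG dinucleotides, with 4 in that of S100a8, 2 in those of S100a9 and S100a4, 14 in that of S100a13 and 15 in that of S100a11, against a median of 7 over all windows.

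S100a8 and S100a9 were high in 2 libraries, FOXO3 KO 1 and FOXO3 KO 3, and low in the other 4. S100a8 was at 7.89, 11.3 and 2.4 CPM in WT 1, 2 and 3, and at 83.2, 12.9 and 59.8 CPM in FOXO3 KO 1, 2 and 3. S100a9 was at 0.471, 5.61 and 0.252 CPM in WT 1, 2 and 3, and at 164, 6.93 and 117 CPM in FOXO3 KO 1, 2 and 3. For both genes the lowest FOXO3 KO value was that of the library labelled FOXO3 KO 2, and it exceeded the highest WT value, that of WT 2, by 1.14-fold for S100a8 and 1.24-fold for S100a9. FOXO3 KO 1 and 3 exceeded the same WT value by 7.34-fold and 5.28-fold for S100a8, and by 29.3-fold and 20.8-fold for S100a9. The groups did not overlap for either gene, in a table where the FOXO3 KO group lay wholly above WT for 7.0% of the 15608 genes tested, a count from which nothing is read here because these genes were chosen on this contrast.

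**Figure D1:**
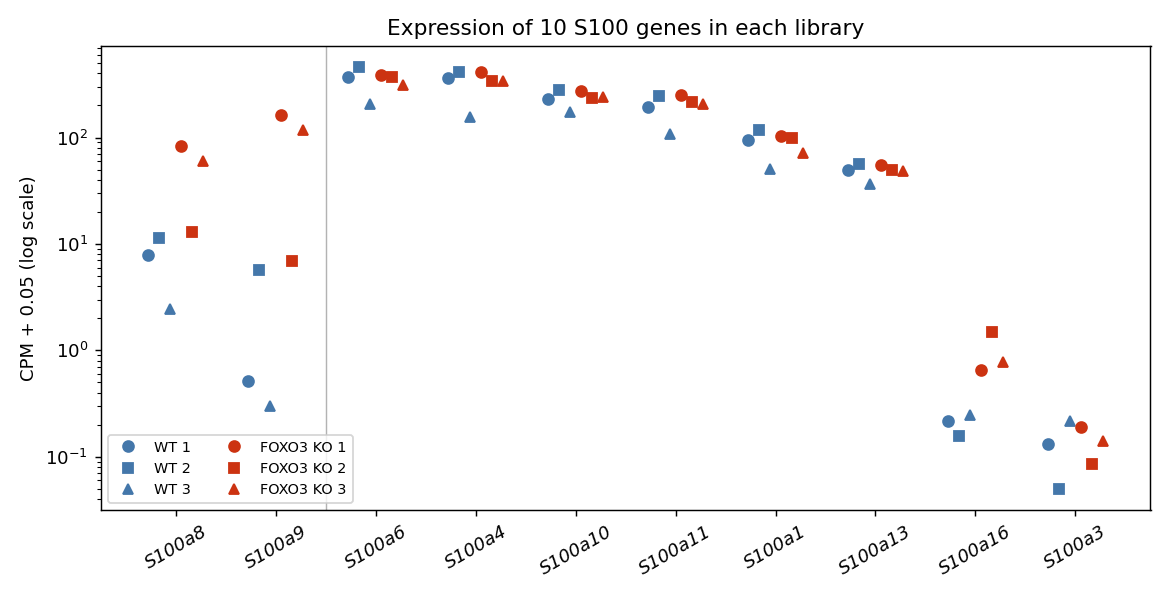
Expression of the 10 S100 genes in each of the 6 libraries, as CPM + 0.05 on a log axis, with WT in blue and FOXO3 KO in red and the marker shape giving the replicate. S100a8 and S100a9 (left of the line) reach 59.8 CPM or more in FOXO3 KO 1 and 3 only, while the 6 members from S100a6 to S100a13 keep all libraries within 2.63-fold of each other.

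Mean S100a8 was 7.21 ± 4.50 CPM in WT and 52.0 ± 35.8 CPM in FOXO3 KO (SD, n = 3 each). The log2 fold change of FOXO3 KO over WT from the fit across all genes was 2.85 with an SE of 0.82, a fold of 7.23. Without the library labelled FOXO3 KO 2 it was 3.31 (SE 0.63), and without WT 3 it was 2.45. The spread within FOXO3 KO came from 1 library being near the level of WT. Mean S100a9 was 2.11 ± 3.03 CPM in WT and 96.0 ± 80.7 CPM in FOXO3 KO (SD, n = 3 each), with a log2 fold change of 5.55 (SE 1.60). That of S100a9 was 6.09 without the library labelled FOXO3 KO 2 and 5.06 without WT 3. WT 2 held most of the S100a9 of its group, and without WT 2 the log2 fold change of S100a9 was 8.04. Its sign was positive in every alternative, which is no support, since S100a9 was chosen on this contrast and its groups did not overlap.

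The balance of the pair differed between libraries as well. Calprotectin holds both proteins in equal parts, but their transcripts need not be equal. S100a9 made up 5.63% of the counts of both genes in WT 1 (95% Wilson interval 3.54 to 8.83), 33.1% in WT 2 (29.1 to 37.5) and 9.47% in WT 3 (5.06 to 17.0). In FOXO3 KO it made up 66.4% in FOXO3 KO 1 (65.3 to 67.5), 34.9% in the library labelled FOXO3 KO 2 (31.0 to 39.0) and 66.1% in FOXO3 KO 3 (64.9 to 67.3). FOXO3 KO 1 and 3 differed from each other by less than their intervals, and so did WT 2 and the library labelled FOXO3 KO 2. S100a8 was thus the more abundant of the pair in 4 libraries, and S100a9 in the other 2, with an S100a9 to S100a8 count ratio of 1.98 and 1.95 there and of 0.0597 to 0.537 in the rest. The WT 1 and WT 3 shares rested on 17 and 9 S100a9 counts, and intervals cover counting error only.

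**Figure D2:**
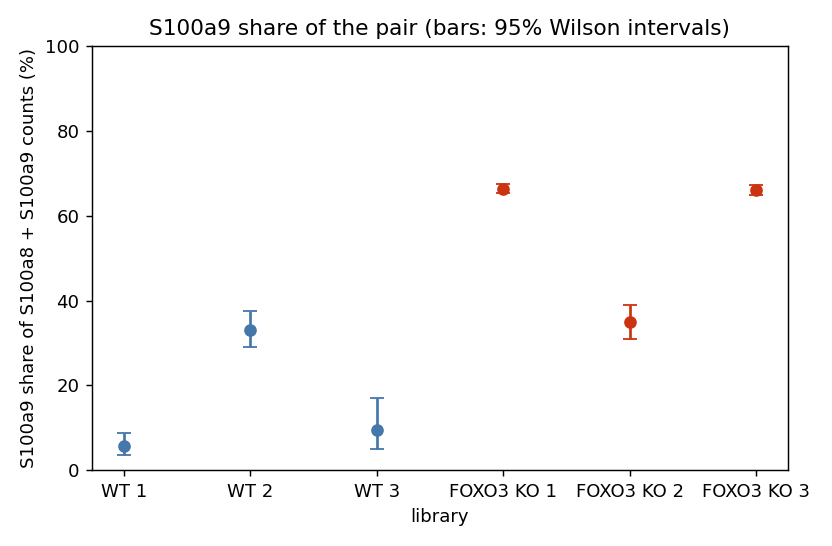
Share of S100a9 in the summed counts of S100a8 and S100a9 (%) in each library, with WT in blue, FOXO3 KO in red and bars giving 95% Wilson intervals. FOXO3 KO 1 and 3 sit at 66.4% and 66.1%, and the library labelled FOXO3 KO 2 sits at 34.9%, beside WT 2 at 33.1%.

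The pair was a small part of the family in WT. Together S100a8 and S100a9 made up 0.639%, 1.07% and 0.361% of the CPM of all 10 members in WT 1, 2 and 3. They made up 14.3% and 12.6% in FOXO3 KO 1 and 3, and 1.5% in the library labelled FOXO3 KO 2. The other 8 members summed to 1302, 1574 and 733.6 CPM in WT 1, 2 and 3 and to 1481, 1302 and 1222 CPM in FOXO3 KO 1, 2 and 3, so that the groups overlapped.

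The 6 well-expressed members formed the bulk of the family in every library: S100a4, which binds non-muscle myosin, S100a6, which binds annexins, S100a10, the partner of annexin A2, S100a11, a partner of annexin A1, S100a1, a calcium sensor best known from muscle, and S100a13, which helps to export FGF1 and IL-1α. S100a6 was at 372, 459 and 207 CPM in WT 1, 2 and 3 and at 388, 367 and 313 CPM in FOXO3 KO 1, 2 and 3. S100a4 was at 362, 414 and 157 CPM in WT and at 411, 336 and 341 CPM in FOXO3 KO, in the same order. Both genes were lowest in WT 3, and the 2 groups overlapped. S100a10 was at 229, 281 and 175 CPM in WT and at 273, 233 and 239 CPM in FOXO3 KO. S100a11 was at 194, 245 and 108 CPM in WT and at 249, 216 and 208 CPM in FOXO3 KO. In both of these annexin partners WT 3 was again lowest and the groups overlapped. S100a1 was at 94.6, 118 and 50.02 CPM in WT and at 104, 99.1 and 70.8 CPM in FOXO3 KO. S100a13 was at 49.99, 56.6 and 36.9 CPM in WT and at 55.5, 49.95 and 48.3 CPM in FOXO3 KO.

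None of these 6 members passed the test. Their log2 fold changes lay between 0.04 (S100a6) and 0.30 (S100a11), with SEs of 0.17 to 0.35 and a median of 0.11, and their adjusted p lay between 0.866 and 0.979 (quasi-likelihood test of edgeR, Benjamini-Hochberg over 15608 genes). The median over all genes tested was -0.01. The test called 0.0% of all genes at an FDR under 0.05 and a fold change over 1.5, and 668 genes (4.28%) at an unadjusted p under 0.05 and the same fold. DESeq2 called 166 genes (0.956% of the 17359 it adjusted) and edgeR's likelihood ratio test 109 (0.698%), none of them among these 6 members, of which none had an unadjusted quasi-likelihood p under 0.05. A missed threshold does not show equal levels, since a difference of the size of the SEs could not be seen here. All 6 genes were lowest in WT 3, at 0.422 to 0.708 of the mean of the other 5, as were 37.47% of all genes tested. Without WT 3 their log2 fold changes lay between -0.21 and 0.04, with 5 of 6 below 0 and a lowest adjusted p of 0.755, and without the library labelled FOXO3 KO 2 they lay between 0.00 and 0.33.

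**Figure D3:**
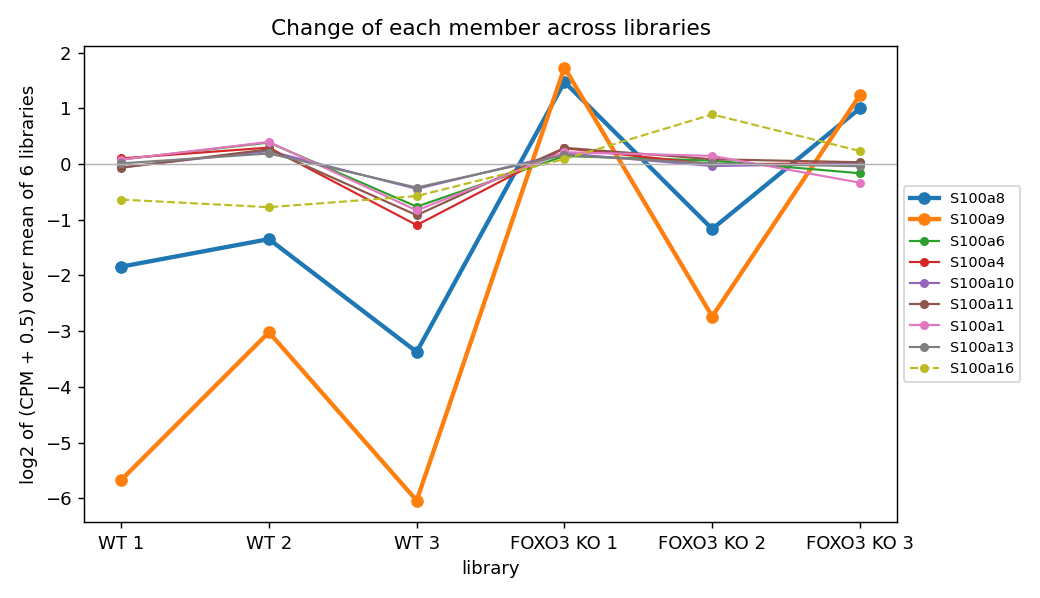
Log2 of (CPM + 0.5) of 9 S100 genes in each library, less the log2 of the mean over the 6 libraries. Lines join the values of 1 gene and imply no order of the libraries. S100a8 and S100a9 peak in FOXO3 KO 1 and 3, S100a16 in the library labelled FOXO3 KO 2, and the other 6 run together with their lowest point in WT 3.

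These 6 members moved together across libraries, with Pearson's r of log2(CPM + 0.5) between 0.892 and 0.984 for every pair of them, given as a description over 6 libraries that share WT 3 as their lowest point. The r of S100a8 with S100a9 was 0.970, and with the 6 members it lay between 0.40 and 0.728 for S100a8 and between 0.285 and 0.635 for S100a9. The genes most like S100a8 in this measure were Arsb, a lysosomal sulfatase (r = 0.993), H60b, an NKG2D ligand (0.991), Clec4n, the fungal receptor Dectin-2 (0.991), Mfsd14b (0.989) and Cldn23 (0.989). Clec4n was at 5.98, 8.29 and 3.69 CPM in WT 1, 2 and 3 and at 16.8, 8.43 and 14.2 CPM in FOXO3 KO 1, 2 and 3. Those most like S100a9 were Il1rap, a subunit of the IL-1 receptor (0.999), Metap1 (0.996), Il1b, the cytokine IL-1β (0.996), Gm11769 (0.993) and Asb4 (0.991). Il1b was at 4.54, 7.34 and 3.58 CPM in WT and at 29.1, 8.76 and 26.7 CPM in FOXO3 KO, in the same order. With 6 libraries a high r needs only that the same 2 libraries stand out. The log2 fold changes of these 10 genes ranged from 0.17 (Mfsd14b) to 2.06 (Il1b). Their direction is no support, since they were picked for likeness to 2 genes that were chosen on this contrast. Il1b is also on the study's panel from these samples. H60b and Gm11769 were low, at no more than 0.567 and 0.992 CPM in any library.

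S100a16, a broadly expressed member found in epithelial and stromal cells, was low in every library and highest in the library labelled FOXO3 KO 2. It was at 0.166, 0.106 and 0.196 CPM in WT 1, 2 and 3 (6, 3 and 7 counts) and at 0.602, 1.42 and 0.720 CPM in FOXO3 KO 1, 2 and 3 (17, 39 and 24 counts). The groups did not overlap, and S100a16 passed the filter on low counts only through the FOXO3 KO group. Having entered the test through the group where it is high, it had to differ, so its p-values are not given and no support is drawn from a call of it. Its log2 fold change was 2.5 (SE 0.48), and 2.04 when the library labelled FOXO3 KO 2 was left out. DESeq2 without that library called 0.503% of the 20666 genes it adjusted and none of the 8 members beside S100a8 and S100a9. Some markers of cells that line and support the peritoneum were also highest in the library labelled FOXO3 KO 2, and others were not. The 9 mesothelial markers summed to 8.34, 7.13 and 16.5 CPM in WT 1, 2 and 3 and to 14.7, 47.8 and 20.7 CPM in FOXO3 KO 1, 2 and 3, so that WT 3 lay above FOXO3 KO 1. For 5 of the 9 every FOXO3 KO library lay above every WT library (7.0% of all genes tested), whereas Krt8, Krt18 and Msln were highest in WT 3, with Krt8 at 7.02 CPM there and Msln at 0 to 0.224 CPM throughout. The median log2 fold change of the tested ones was 2.08, and 1.19 without the library labelled FOXO3 KO 2. The 7 fibroblast markers summed to 76.3, 53.4 and 41.3 CPM in WT and to 93.8, 483.5 and 169.8 CPM in FOXO3 KO, with 4 of the 7 above WT against the same 7.0% and a median log2 fold change of 2.03, or 1.15 without that library. DESeq2 called 3 mesothelial markers (Krt19, Wt1 and Upk1b) and 3 fibroblast markers (Col1a1, Col1a2 and Pdgfra), beside 0.956% of all genes it adjusted. The quasi-likelihood test called 0 of either list and 0.0% of all genes. Upk1b had 9, 8 and 12 counts in WT 1, 2 and 3 and 23, 57 and 63 counts in FOXO3 KO 1, 2 and 3, and no support is drawn from its call. Krt19, Wt1, Col1a1 and Col1a2 of these lists had been picked by the study from these samples and are not independent evidence of direction. The r of S100a16 was 0.982 with Krt19 and 0.981 with Wt1, both mesothelial markers, and was not taken with the other mesothelial markers. Krt19 and Wt1 are on the study's panel and, like S100a16, were higher in every FOXO3 KO library than in WT. No support is therefore drawn from these r values, and these lists' part in the S100a16 result was not tested.

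S100a3, known from hair cuticle, was at or near the limit of detection, with 3, 0 and 6 counts in WT 1, 2 and 3 and 4, 1 and 3 counts in FOXO3 KO 1, 2 and 3. It did not pass the filter, was not tested, and no fold is given. Of the 10 members, 9 were tested. The annotated span of S100a3 overlaps that of S100a2, so counts at this level cannot be assigned with certainty. Among the 9 other symbols of the table that start with S100, 8 had at most 17 counts in any library and were not tested, and 3 of these were at 0 in all 6 libraries. S100pbp, which encodes a binding protein of S100P and is not itself an S100 gene, was between 42.3 and 53.4 CPM, with a log2 fold change of -0.15 (SE 0.11, adjusted p = 0.847 by edgeR's quasi-likelihood fit).

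Ordered by level per length, as the mean CPM per kb of annotated exon over the 6 libraries with its SD, S100a4 came first (576 ± 161), followed by S100a11 (398 ± 101), S100a6 (257 ± 62.2), S100a10 (197 ± 31.2) and S100a1 (129 ± 35.5). S100a9 (94.0 ± 139), S100a13 (69.3 ± 9.86) and S100a8 (42.6 ± 48.2) came next, and S100a16 (0.331 ± 0.311) and S100a3 (0.0153 ± 0.0111) came last. Neighbours from S100a1 to S100a8 differed by less than the larger of their SDs, and so did S100a6 and S100a10, and S100a8 and S100a16, although S100a6 and S100a8 were the higher of their pairs in 6 of 6 libraries. The order of all 10 was the same in WT 1, 2 and 3 and in the library labelled FOXO3 KO 2, with S100a8 at place 7 and S100a9 at place 8. In FOXO3 KO 1 and 3 S100a9 stood at places 3 and 4, and S100a8 stayed at place 7. With coding length in place of annotated exons, 6 of the 10 places changed and S100a6 came first.

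**Figure D4:**
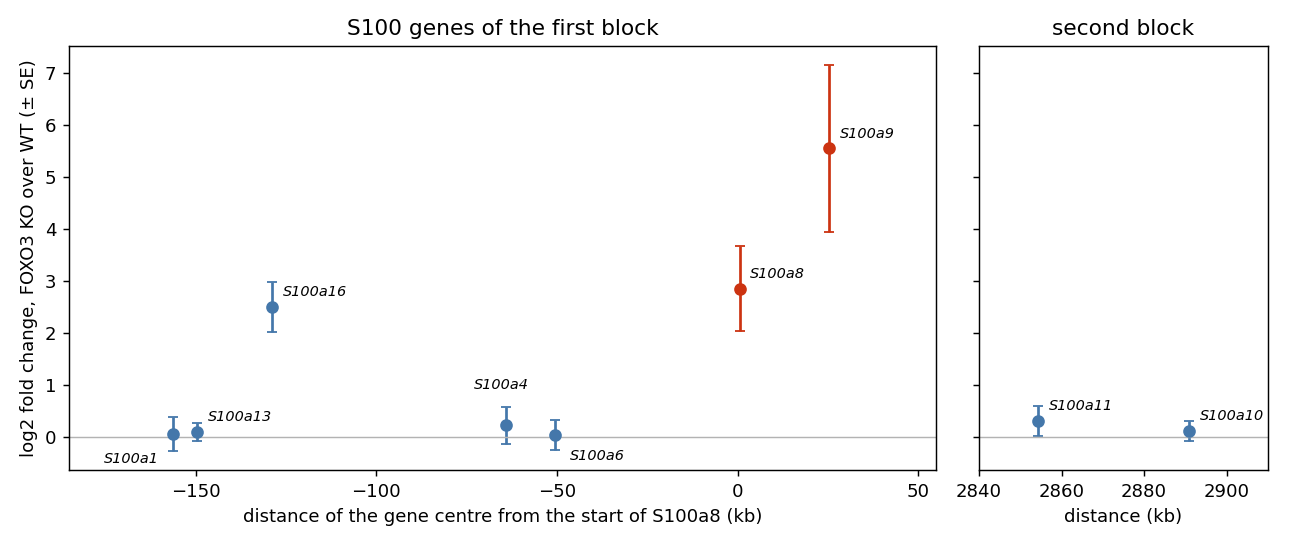
Log2 fold change of FOXO3 KO over WT (± SE, all 6 libraries) for the 9 tested members against the distance of each gene's centre from the start of S100a8 (kb), with the second block of the chromosome in its own panel. S100a8 (2.85) and S100a9 (5.55) lie next to each other at the end of the first block, S100a16 (2.5) lies among genes with values of 0.30 or less.

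Genes whose products bind S100 proteins, receive their signals or regulate S100a8 and S100a9 were examined next, from a list of 36 genes, all of which were tested. None passed the test by edgeR's quasi-likelihood or likelihood ratio test, DESeq2 or limma-voom. Over all genes the first 3 of these called 0.0%, 0.698% and 0.956%, and limma-voom called 0 genes, so the absence of calls shows nothing about the 36. An unadjusted quasi-likelihood p under 0.05 with a fold change over 1.5 was found for 1 of the 36, beside 4.28% of all genes tested. Their median log2 fold change was 0.23, against -0.01 over all genes, and it was 0.00 without WT 3 and 0.23 without the library labelled FOXO3 KO 2. In 6 of the 36 every FOXO3 KO library lay above every WT library and in 0 below, in a table where these shares were 7.0% and 5.36%. Tlr4, the receptor of calprotectin on macrophages, was between 100 and 214 CPM, and Ager, which encodes RAGE, between 1.06 and 2.22 CPM, both with overlapping groups. Ly96, the co-receptor MD-2 of TLR4, was at 17.0, 15.6 and 16.02 CPM in WT 1, 2 and 3 and at 22.7, 18.1 and 19.2 CPM in FOXO3 KO 1, 2 and 3, with a log2 difference of 0.30 (0.37 without the library labelled FOXO3 KO 2). Mcam, an S100a8 and S100a9 receptor on tumor cells, was at 0.42 to 0.48 CPM in WT and 0.66 to 1.05 CPM in FOXO3 KO, with a log2 difference of 0.95 (1.13 without that library), and was the only one of the 36 past both an unadjusted p of 0.05 and a 1.5-fold change.

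Among 10 regulators, 4 had groups that did not overlap, all higher in FOXO3 KO, beside 7.0% of all genes tested. Cebpb, which encodes C/EBPβ, a myeloid factor of the C/EBP family, was at 88.9, 93.9 and 76.5 CPM in WT 1, 2 and 3 and at 117, 124 and 107 CPM in FOXO3 KO 1, 2 and 3. Hif1a, the hypoxia factor, was at 157, 174 and 155 CPM in WT and at 201, 196 and 215 CPM in FOXO3 KO. In the library labelled FOXO3 KO 2 Cebpb was at its highest and Hif1a was above every WT value. Their log2 fold changes were 0.42 for Cebpb and 0.33 for Hif1a (0.37 and 0.36 without that library), with adjusted p of 0.714 and 0.748 by edgeR's quasi-likelihood fit. Irf7 and Stat3 had log2 fold changes of 0.36 and 0.27 (0.37 and 0.36 without it). The part of these regulators in the levels of S100a8 and S100a9 was not tested. Spi1, which encodes PU.1, was between 147.8 and 279.9 CPM with overlapping groups. The intracellular partners were abundant, with Myh9, the myosin that S100a4 binds, at 804.5 to 948.5 CPM and Ahnak, which binds S100a10 with annexin A2, at 1608 to 2891 CPM, both with overlapping groups. The annexins are calcium-dependent membrane proteins that several S100 dimers bind. Of the 8 listed, 0 passed the test and 7 were lowest in WT 3, beside 0.0% and 37.47% of all genes tested. Anxa2, the partner of S100a10, was at 1026, 1253 and 393.7 CPM in WT 1, 2 and 3 and at 1333, 1009 and 1044 CPM in FOXO3 KO 1, 2 and 3, the pattern of S100a4 (r = 0.996) and S100a10 (0.960). The annexins' median log2 fold change was 0.15, or -0.08 without WT 3 and 0.17 without the library labelled FOXO3 KO 2.

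S100a8 and S100a9 are abundant in neutrophils, so markers of this cell type were set beside them. Of 19 neutrophil markers that are not on the study's own gene panel, 12 were tested. The quasi-likelihood test of edgeR, its likelihood ratio test and DESeq2 called 0 of them, beside 0.0%, 0.698% and 0.956% of all genes in that order. At such shares, 0 calls among 12 genes show nothing about these markers. An unadjusted quasi-likelihood p under 0.05 with a fold change over 1.5 was found for 1 of the 12 (4.28% of all genes). The 19 markers summed to 236, 233 and 229 CPM from WT 1 to 3 and to 286, 259 and 308 CPM from FOXO3 KO 1 to 3, much of it from Csf3r, the G-CSF receptor, at 116 to 164 CPM. Groups did not overlap for 3 of the 19, namely Csf3r, Lcn2 and the untested Ly6g, all higher in FOXO3 KO. Ly6g had 1, 0 and 0 counts in WT 1, 2 and 3 and 1, 2 and 4 counts in FOXO3 KO 1, 2 and 3. Among the 12 tested this leaves 2, beside 7.0% of all genes tested. The median log2 fold change of the tested ones was 0.40, which was 0.17 without WT 3 and 0.51 without the library labelled FOXO3 KO 2. Ly6g, Camp, Ngp, Elane and Mpo were each at 0.247 CPM or less in every library, and 7 of the 19 were under 1 CPM throughout. Other listed markers were higher, with Prtn3 and Fpr1 at up to 41.5 and 22.0 CPM (both in WT 3) and Fpr2 at up to 16.9 CPM (FOXO3 KO 3). Their log2 fold changes were -0.36, 0.35 and 0.85, or 2.28, 1.84 and 1.44 without WT 3. Of the 12 tested markers 9 had a positive log2 fold change, and Prtn3, Cxcr1 and Pglyrp1 did not. Lcn2, lipocalin-2, was at 4.02, 6.03 and 2.52 CPM in WT 1, 2 and 3 and at 10.3, 7.30 and 7.08 CPM in FOXO3 KO 1, 2 and 3. Retnlg, another neutrophil transcript, was at 17.5, 21.2 and 3.47 CPM in WT and at 21.7, 17.0 and 18.4 CPM in FOXO3 KO. Ltf, lactoferrin, was highest in the libraries where S100a9 peaked, at 0.582, 0.882 and 0.336 CPM in WT and at 1.52, 0.365 and 1.08 CPM in FOXO3 KO, as was the untested Mrgpra2a, at 0.354 CPM or less.

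A further 11 genes listed as neutrophil genes were ones the study had picked from these samples, so their direction is not independent evidence. They were Cxcr2, Stfa1, Il1r2, Asprv1, Olfm4, Chil1, Trem1, Mrgpra2b, Il1f9, Il1b and Steap4. The paper describes TREM1 as a receptor of macrophages. The 11 summed to 9.20, 12.4 and 7.02 CPM from WT 1 to 3 and to 91.8, 26.4 and 74.6 CPM from FOXO3 KO 1 to 3. Steap4 was highest in the library labelled FOXO3 KO 2, at 8.68, 10.95 and 9.05 CPM from FOXO3 KO 1 to 3. Steap4 and Il1b (8.76 CPM) were the largest parts of the sum in the library labelled FOXO3 KO 2. Cxcr2, the main chemokine receptor of neutrophils, was at 0.886, 0.882 and 0.587 CPM in WT and at 18.7, 2.23 and 14.4 CPM in FOXO3 KO, with an r of 0.959 with S100a9. Monocytes also carry S100a8 and S100a9. The 8 monocyte markers summed to 1054, 916 and 1312 CPM from WT 1 to 3 and to 1206, 959 and 1704 CPM from FOXO3 KO 1 to 3, with a median log2 fold change of 0.15 (0.24 without WT 3 and 0.08 without the library labelled FOXO3 KO 2). Groups did not overlap for 2 of the 8, Ccr2 and Vcan, beside 7.0% of all genes tested with FOXO3 KO above WT. Ccr2, the receptor that brings monocytes into tissue, was at 481.8, 369.7 and 218.5 CPM in WT and at 570.8, 484.2 and 812 CPM in FOXO3 KO. Vcan is a gene on the study's panel that DESeq2 called, beside 0.956% of all genes it adjusted. F13a1 was highest in FOXO3 KO 1 (425 CPM) and 3 (537 CPM), while Ly6c2, a marker of classical monocytes, was at 3.99 to 12.3 CPM with overlapping groups. The 6 red blood cell genes, 3 of them on the study's panel, summed to 24.5, 9.70 and 27.0 CPM from WT 1 to 3 and to 117, 9.23 and 182 CPM from FOXO3 KO 1 to 3. Their sum was highest in the libraries where S100a8 and S100a9 were highest. The quasi-likelihood and likelihood ratio tests of edgeR and DESeq2 called none of the 6, beside 0.0%, 0.698% and 0.956% of all genes. Hbb-bs, a beta globin, was higher in FOXO3 KO 3 (89.6 CPM) than in FOXO3 KO 1 (59.7 CPM), whereas S100a8 and S100a9 were higher in FOXO3 KO 1. The part of neutrophils, monocytes or blood in the levels of S100a8 and S100a9 was not tested.

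**Figure D5:**
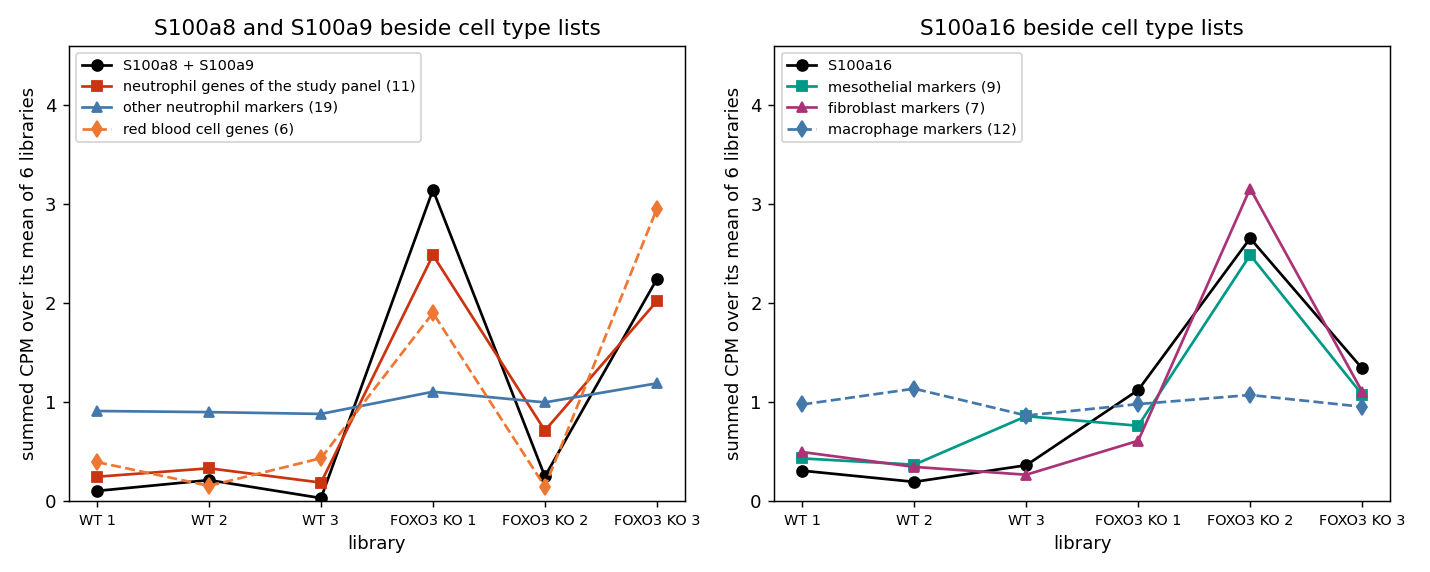
Summed CPM of S100a8 and S100a9 (left) and CPM of S100a16 (right) in each library beside summed CPM of cell type lists, each divided by its own mean over the 6 libraries. S100a8 and S100a9 peak in FOXO3 KO 1 and 3 with the sums of the red blood cell genes and of the 11 study panel genes listed here as neutrophil genes. S100a16 peaks in the library labelled FOXO3 KO 2 with the sums of the mesothelial and fibroblast markers.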

How the data were processed

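RNA of peritoneal macrophages from WT and FOXO3 KO mice, in 3 libraries of each genotype, was sequenced in paired reads of 76 bp. The authors deposited estimated counts for 54648 gene symbols in 6 libraries, without normalization. The submitters' processing notes name STAR 2.6.1d, kallisto 0.46.0, DESeq2 and mm10, without saying which made the table. All values were rounded to whole counts, 81.4% of them being whole to within 0.01 already. Library totals of 28083572 to 36424331 counts set the precision, and low members such as S100a16 and S100a3 rest on few counts. Shares of the counts have Wilson intervals.

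The groups of the labels were compared with edgeR 4.0.16 (R 4.3.3) by the quasi-likelihood test after filterByExpr and TMM (factors 0.936 to 1.10), adjusted by Benjamini-Hochberg over the genes tested, at an FDR of 0.05 and a fold change of 1.5. CPM values use the TMM-scaled library size. SEs were derived from the fold change and the test statistic. Scripts were tested on simulated data. Alternatives were DESeq2 1.42.0, edgeR's likelihood ratio test, limma-voom (limma 3.58.1), other factors, no filter or a filter of 10 counts in 3 libraries, a block for the replicate number, a covariate for the split by Xist, and each library left out in turn. DESeq2 without the library labelled FOXO3 KO 2 was added after the data were seen. Likeness between genes was Pearson's r of log2(CPM + 0.5) over the 6 libraries. Gene positions and lengths were taken from GENCODE M21 (GRCm38), which holds 99.0% of the symbols, and promoters from RefSeq (GRCm38.p6). Counting that shares reads between overlapping S100 genes could affect S100a3. Python 3.11.15 was used with pandas 2.3.3 and numpy 2.4.6.

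The members, the lists of partners and markers, and the tests were chosen with earlier results of these data known. Named genes were the 10 members, all other S100 symbols, Foxo3, Xist, list genes whose groups did not overlap or that were highest in expression, and the 5 genes most like S100a8 and S100a9. Ddx3y, neutrophil markers named beyond that rule and other list genes named for their role were chosen after their values were seen. Of the other marker lists, none gave a gene past the quasi-likelihood test, which called 0.0% of all genes. Their median log2 fold changes were 0.34 for eosinophils, -0.75 for mast cells, -0.97 for T cells and -1.96 for B cells (-0.07, 0.17, 0.15 and -0.48 without WT 3). Without the library labelled FOXO3 KO 2 these medians were 0.37, -0.44, -0.83 and -1.92 in the same order.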

Additional observations from a re-analysis of the deposited data

How the results depend on the processing

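Among the 8 S100 members beside S100a8 and S100a9, edgeR's quasi-likelihood test called 0, while DESeq2 called 1 and the likelihood ratio test 1, S100a16 in both cases, a gene that entered the test only through the group where it is high, so that these calls are no support. Over all genes the quasi-likelihood test called 0, DESeq2 166 and the likelihood ratio test 109, and DESeq2 called 104 without the library labelled FOXO3 KO 2, the cause of which was not tested. Limma-voom called 0. With each library left out in turn the log2 fold change ranged from 4.90 to 8.04 for S100a9, from 2.33 to 3.34 for S100a8, and from -0.05 to 0.34 for the median of the other tested members. The 8.04 was reached without WT 2 and the 4.90 without FOXO3 KO 1. In the fit with the replicate number as a block the log2 fold change was 2.82 for S100a8 and 6.06 for S100a9, the median of the others was 0.14, and 0 genes were called. Deviations from the group means, taken over the genes tested, correlated at 0.256, -0.0722 and 0.524 between same-numbered libraries. The numbers were therefore not taken to pair the samples. With the covariate for the split by Xist, S100a8 was at 3.02 and S100a9 at 5.73. Without the library labelled FOXO3 KO 2, S100a16 was at 2.04 in the edgeR fit and at 2.08 in DESeq2. In the order per length 6 places changed with coding length, and 2 without FOXO3 KO 1 and 2 without FOXO3 KO 3. Every alternative kept S100a8 and S100a9 higher in FOXO3 KO. Both were chosen on this contrast and their groups did not overlap, so this is no support. With 3 libraries a group and 1 of them at odds with its label, small differences in the 6 well-expressed members could not be detected.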
